A study of Mus musculus with 16 samples.

Results

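The microRNA (miRNA) profile of macrophages given vesicles from macrophages kept with saline was set against that of macrophages given buffer alone. RAW264.7, the line used, is a macrophage line from a male BALB/c mouse. All libraries of recipient cells labelled RAW saline EVs and all labelled PBS were used, which is 6 of the 16 samples of the series, with 3 libraries in each group. Every miRNA name in the count table entered, 941 in all, of which 681 had reads in these 6 libraries and 229 had enough reads to be tested. In the study, extracellular vesicles (EVs) from macrophages or from mouse serum were given to RAW264.7 cells that then met concanavalin A (Con A), a T-cell-activating lectin used to model hepatitis in mice. The EV recipients were preincubated for 24 h, held for 8 h in EV-free medium with RAW saline EVs at 6e+09 particles per mL, and then cultured for 16 h with Con A. The PBS cells had the same course with PBS in place of EVs, so both groups met Con A, and no cells without Con A were used here. The sources used here state no Con A dose for the recipients. The EVs had been collected by ultracentrifugation from medium of RAW264.7 cells kept for 24 h with saline. Another group of recipients, used below only for direct comparison, received the same number of EVs from RAW264.7 cells kept for 24 h with 25 µg/mL Con A (RAW Con A EVs). All libraries come from 1 cell line, donor and recipient cells are the same line, and RNA made by the recipient cells cannot be told apart from vesicle RNA they took up or that stuck to them.

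A miRNA is made from a hairpin transcript that Drosha and Dicer cut into a short duplex. Of the duplex's arms, called 5p and 3p, usually the guide is loaded into Argonaute and accumulates, while the passenger arm is degraded and is found at far lower levels. The loaded miRNA recognises target messages mainly through its seed, the bases near its 5′ end, and lowers their stability and translation. In macrophages, miR-155-5p and miR-146a-5p are induced by inflammatory signals through NF-κB. The first represses brakes on signalling such as Socs1, and the second represses Irak1 and Traf6 and so forms a negative feedback loop. EVs carry miRNAs between cells, and their miRNA content differs from that of the cell that sheds them.

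The mature sequences of the miRNAs on which the results turn are shown 5′ to 3′, from RefSeq (GRCm38.p6), with the seed, bases 2 to 8, in capitals. The first set rose in the recipients and the second fell. miR-7a-5p and miR-7b-5p share a seed and differ by 2 edits over their length.
miR-146a-5p: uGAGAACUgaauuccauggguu
miR-7a-5p: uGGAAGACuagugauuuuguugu
miR-7b-5p: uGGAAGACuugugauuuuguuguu
miR-155-5p: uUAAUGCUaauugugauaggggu
miR-23a-3p: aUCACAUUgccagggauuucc
miR-3535: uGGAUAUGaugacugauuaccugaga
miR-3473a: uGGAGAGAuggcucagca
let-7c-1-3p: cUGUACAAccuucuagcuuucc
miR-27a-5p: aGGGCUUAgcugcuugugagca
miR-155-3p: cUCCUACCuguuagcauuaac
miR-130b-5p: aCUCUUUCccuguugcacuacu
miR-484: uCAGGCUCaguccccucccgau

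Recipients of RAW saline EVs yielded 227745, 364910 and 240248 miRNA reads, and PBS cells 222375, 302162 and 308824. Before TMM scaling, a count of 0 allows up to 8.22 to 13.2 CPM in the EV recipients and up to 9.71 to 13.5 CPM in PBS cells (3 reads, for counting error only). CPM here is a miRNA's reads scaled to the miRNA reads of its library, with library totals adjusted by the trimmed mean of M values (TMM). The macrophage miRNA miR-21a-5p was the most abundant in all 6 libraries, with 27.3 to 28.6% of reads in the EV recipients and 26.3 to 27.7% in PBS cells. The blood-cell miRNA miR-142a-3p had 458 to 863 reads in the EV recipients and 501 to 761 reads in PBS cells. The myeloid marker miR-223-3p was close to its floor, at 2 to 8 reads in the EV recipients and 6 to 11 reads in PBS cells. Separate cultures are not stated for the libraries of a group, and all p-values therefore reflect only how far these libraries spread, which may be technical.

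Of the 229 tested miRNAs, 17 rose and 15 fell in cells given RAW saline EVs (adjusted p under 0.05, edgeR's quasi-likelihood test with Benjamini-Hochberg adjustment). These 32 calls are 14.0% of the tested miRNAs, 7.42% up and 6.55% down, and the median log2 change over all tested miRNAs was -0.004. The rises were led by abundant miRNAs with modest changes, miR-146a-5p and the miR-7 family. The falls were led by rarer arms of hairpins, among them let-7c-1-3p, miR-27a-5p and miR-155-3p, and 6 of the 15 exceeded 2-fold, against 2 of the 17 rises. The groups of 3 libraries did not overlap for 31 of the 32 calls, with miR-194-5p the exception, and for 72 of the 229 tested miRNAs, or 31.4%. The split of rises and falls moved with the scaling. Scaling by library size alone shifted the median by -0.10 and gave 9 rises and 42 falls, upper-quartile scaling gave 10 and 32, and the authors' scaling 12 and 21, while DESeq2's size factors gave 24 and 15. None of the 32 changed sign under these scalings.

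**Figure D1:**
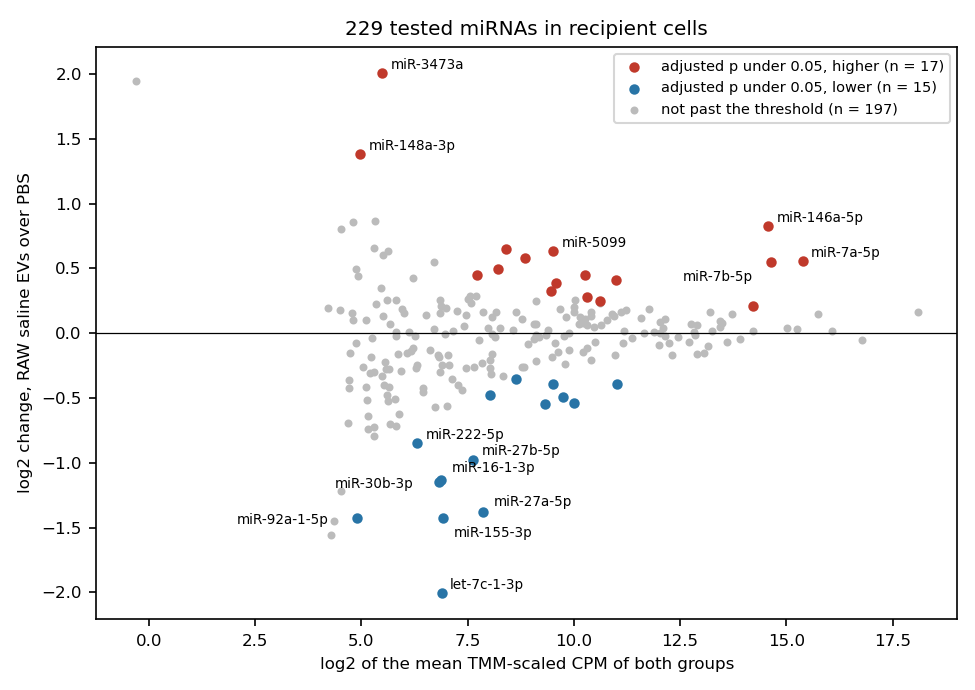
Each point is 1 of the 229 tested miRNAs, with the log2 of its mean TMM-scaled CPM over both groups on the x axis and the log2 change, RAW saline EVs over PBS, on the y axis. The 17 rises are red and the 15 falls blue. The abundant miR-146a-5p, miR-7a-5p and miR-7b-5p stand above 0 at the right, and the largest falls lie at low to middle levels.

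The clearest rise was in miR-146a-5p. It stood at 32192, 31570 and 29508 CPM in cells given RAW saline EVs and at 18280, 17271 and 17145 CPM in PBS cells. The lowest EV recipient library lay far above the highest PBS library. The log2 change was 0.82 with a standard error (SE) of 0.07, or 1.77-fold (adjusted p = 2.40e-11, edgeR's quasi-likelihood test). Its relative miR-146b-5p has the same seed and differs by 2 edits over its length, and its log2 change was 0.04 (adjusted p = 0.678 by the same test).

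Both guide arms of the miR-7 family rose alike. miR-7 is known as a repressor of growth factor signalling genes such as Egfr. miR-7a-5p had 59447, 43080 and 49918 CPM in the EV recipients and 35425, 33576 and 34649 CPM in PBS cells. miR-7b-5p had 34777, 26241 and 29359 CPM in the EV recipients and 20339, 20367 and 20891 CPM in PBS cells. For both miRNAs all EV recipient libraries were above all PBS libraries, with EV recipient library 2 the lowest of its group. The log2 changes were 0.56 with an SE of 0.08 and 0.55 with an SE of 0.07 (adjusted p = 1.36e-06 and 5.51e-07, edgeR's quasi-likelihood test). Since the sequences are so close, reads of the family may be shared between the names. miR-146a-5p, miR-7a-5p and miR-7b-5p together made up 11.5, 10.0 and 10.4% of miRNA reads in the EV recipients, and 7.65, 7.28 and 7.48% in PBS cells.

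miR-155-5p rose while the other arm of its hairpin fell. miR-155-5p stood at 1385, 1416 and 1470 CPM in cells given RAW saline EVs and at 966, 981 and 1167 CPM in PBS cells. miR-155-3p stood at 72.6, 71.8 and 52.5 CPM in the EV recipients and at 148, 155 and 226 CPM in PBS cells. Neither arm's groups overlapped. The log2 change was 0.45 with an SE of 0.08 for the 5p arm and -1.43 with an SE of 0.23 for the 3p arm (adjusted p = 1.00e-04 and 2.17e-05, edgeR's quasi-likelihood test). A list of inflammation-induced macrophage miRNAs had 8 tested members, of which 37.5% were called, against 14.0% of all tested miRNAs. Of these members, miR-146a-5p and miR-155-5p rose and miR-155-3p fell, with a list median of -0.02. The list was chosen with earlier results of these data known, and its called share was not tested. The most abundant member, miR-21a-5p, lay just outside the threshold with a log2 change of 0.16 (adjusted p = 0.0566, edgeR).

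**Figure D2:**
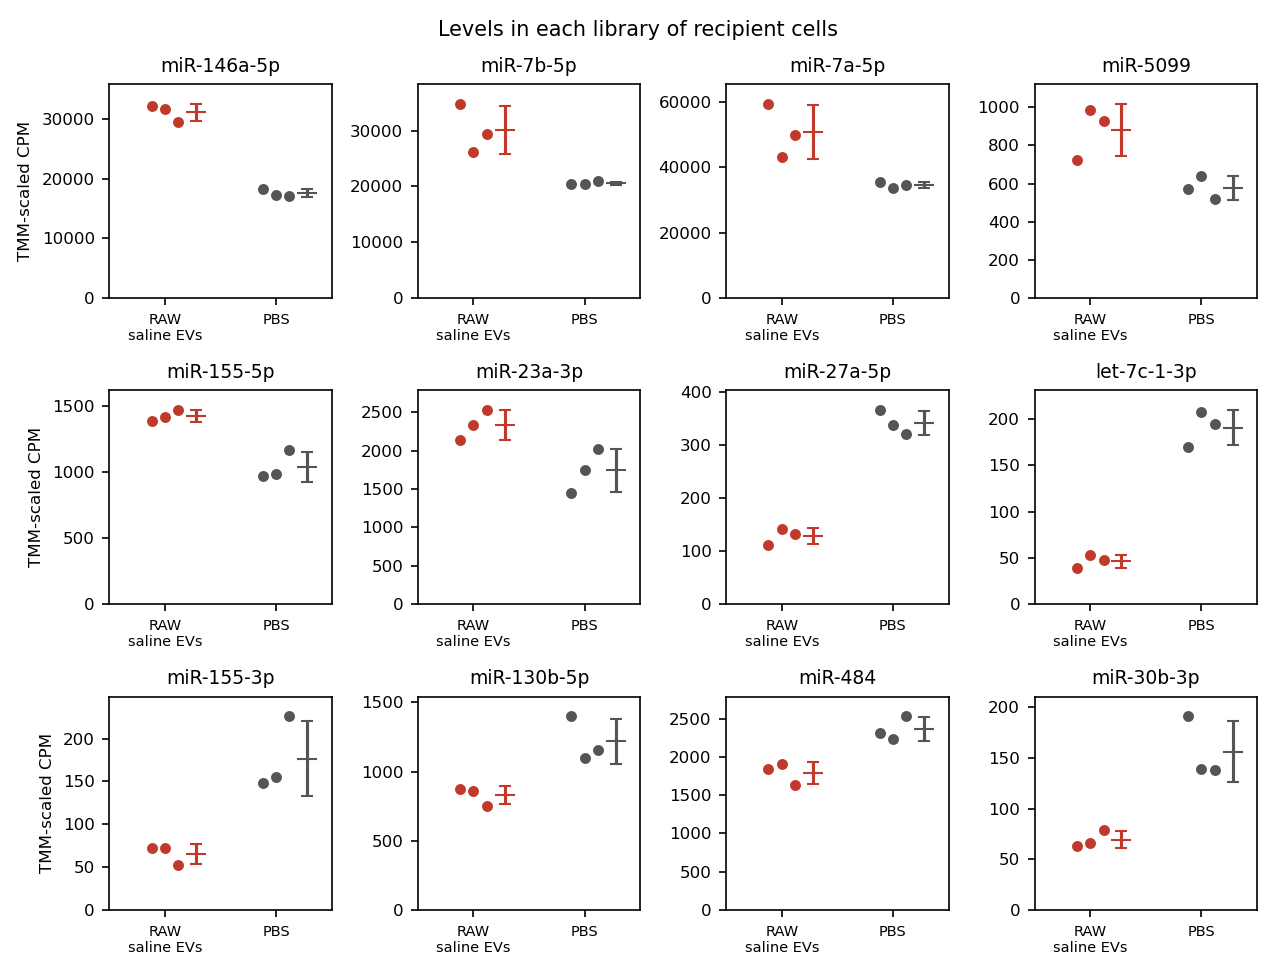
Each panel shows 1 miRNA in recipient cells as TMM-scaled CPM on a linear axis from 0, with RAW saline EVs in red at the left and PBS in grey at the right. Points are the 3 libraries of a group, and the bar gives mean and SD. The groups do not overlap in any of the 12 panels, and miR-155-5p and miR-155-3p move apart.

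Several other rises were of less abundant miRNAs. miR-23a-3p, from the miR-23a/27a/24-2 cluster, had 2145, 2333 and 2533 CPM in the EV recipients and 1454, 1752 and 2022 CPM in PBS cells, a log2 change of 0.41 (adjusted p = 3.86e-04, edgeR's quasi-likelihood test). Its groups came close without overlapping. Names with high numbers, which can stem from fragments of other RNAs, also rose. miR-5099 stood at 726, 988 and 927 CPM in the EV recipients and at 570, 641 and 519 CPM in PBS cells (log2 change 0.63). miR-3535 stood at 624, 475 and 586 CPM in the EV recipients and at 353, 418 and 333 CPM in PBS cells (log2 change 0.58). miR-3473a had the largest rise, 2.01 with an SE of 0.41, at 67.8, 58.0 and 96.2 CPM in the EV recipients and 4.35, 16.2 and 28.3 CPM in PBS cells. Adjusted p was 5.18e-05, 4.69e-04 and 4.31e-04 for these names in the order given (edgeR's quasi-likelihood test). The PBS levels of miR-3473a rest on few reads and lie near the floor of a count of 0, so its fold change is loose. Of the 7 tested names in the list of high-numbered miRNAs, these 3 rose and miR-3968 fell, with a list median of -0.18. The called share was 57.1% in this list and 14.0% over all tested miRNAs. This list too was chosen with earlier results of these data known, and the share was not tested.

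The chromosome X cluster of miR-322, miR-503, miR-351, miR-542 and miR-450 had 2 rises among 8 tested members. That is 25% of them, against 7.42% of all tested miRNAs. The list of this cluster was also chosen with earlier results known, and the share was not tested. miR-503-5p, a repressor of cell cycle genes of the miR-15/16 seed type, had 358, 331 and 564 CPM in the EV recipients and 192, 272 and 302 CPM in PBS cells, a log2 change of 0.65 (adjusted p = 0.00483, edgeR). In EV recipient library 3 its level was well above the others, and without that library the call was lost (log2 change 0.39, adjusted p = 0.123). miR-351-5p, which has the miR-125 seed, had 731, 721 and 919 CPM in the EV recipients and 614, 612 and 645 CPM in PBS cells (log2 change 0.33, adjusted p = 0.0234, edgeR). This call was lost without EV recipient library 3 or PBS library 1 or 2 (adjusted p = 0.195, 0.0574 and 0.0522). The cluster's median was 0.22, and under upper-quartile, library-size and the authors' scaling only miR-503-5p was called.

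miR-378a-3p, miR-378b and miR-378c rose by log2 changes of 0.21, 0.45 and 0.39 (adjusted p = 0.0166, 0.048 and 0.0033, edgeR's quasi-likelihood test). The miR-378 family is linked to energy metabolism, and miR-378a lies within the gene Ppargc1b. miR-378a-3p, the abundant member, stood at 19456, 21293 and 19876 CPM in the EV recipients and at 17266, 18203 and 17016 CPM in PBS cells. These groups were separate by a small margin. miR-378b and miR-378c differ by 2 edits, so their reads may be shared. miR-378a-3p lost its call without EV recipient library 2 or PBS library 1 or 3 (adjusted p = 0.0793, 0.0569 and 0.083). miR-378b kept its call only where EV recipient library 2 was left out (adjusted p = 0.0687 to 0.131 in the other cases). miR-378c kept its call without any 1 library, but scaling by library size alone gave an adjusted p of 0.0534.

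The remaining rises were small or rested on 1 or more libraries. miR-16-5p, a cell cycle repressor, rose by 0.25 on the log2 scale (adjusted p = 0.0246, edgeR) and lost its call without EV recipient library 3 or PBS library 1 (adjusted p = 0.163 and 0.117). miR-22-3p rose by 0.28 (adjusted p = 0.0313, edgeR), with adjusted p of 0.0654 and 0.109 without EV recipient library 2 or 3 and 0.0931 and 0.0593 without PBS library 1 or 3. miR-194-5p, abundant in liver and gut, rose by 0.50 (adjusted p = 0.0347, edgeR), with 339, 273 and 451 CPM in the EV recipients and 200, 223 and 299 CPM in PBS cells. For miR-194-5p, EV recipient library 2 lay below the highest PBS library, and the call was lost without EV recipient library 3 or PBS library 1 or 2 (adjusted p = 0.292, 0.118 and 0.102). miR-148a-3p, known from liver, had 48.4, 52.5 and 35.0 CPM in the EV recipients and 17.4, 25.9 and 9.43 CPM in PBS cells. Its log2 change of 1.38 (adjusted p = 0.048, edgeR) held only where PBS library 2 was left out, with adjusted p of 0.0654 to 0.20 in the other cases. Upper-quartile and library-size scaling each ended the calls of miR-16-5p, miR-22-3p, miR-194-5p, miR-148a-3p, miR-351-5p, miR-378a-3p and miR-378b (adjusted p = 0.0502 to 0.350, edgeR).

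Among the falls, let-7c-1-3p and miR-27a-5p were the most marked. let-7c-1-3p, the passenger arm of a let-7 hairpin, had 38.7, 52.5 and 48.1 CPM in cells given RAW saline EVs and 170, 207 and 195 CPM in PBS cells. miR-27a-5p, the rarer arm of the miR-27a hairpin, had 111, 141 and 131 CPM in the EV recipients and 366, 337 and 321 CPM in PBS cells. For both, every EV recipient library was below the lowest PBS library by a wide margin. The log2 changes were -2.00 with an SE of 0.22 and -1.38 with an SE of 0.15 (adjusted p = 2.34e-08 for each, edgeR's quasi-likelihood test).

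Further rarer arms fell. miR-30b-3p stood at 62.9, 66.3 and 78.7 CPM in the EV recipients and at 192, 139 and 138 CPM in PBS cells (log2 change -1.15). miR-16-1-3p stood at 72.6, 58.0 and 91.9 CPM in the EV recipients and at 187, 155 and 138 CPM in PBS cells (log2 change -1.14). miR-27b-5p stood at 179, 133 and 91.9 CPM in the EV recipients and at 279, 279 and 233 CPM in PBS cells (log2 change -0.97). In each the groups were separate, and all 3 calls held without any 1 library (adjusted p = 3.32e-04, 4.96e-04 and 4.69e-04, edgeR's quasi-likelihood test). miR-221-5p and miR-222-5p, passenger arms of a cluster whose guides repress the cell cycle inhibitor Cdkn1b, fell by 0.55 and 0.84 on the log2 scale (adjusted p = 3.32e-04 and 0.0191, edgeR). The call of miR-222-5p was lost without EV recipient library 2 or 3 or PBS library 1 (adjusted p = 0.0512, 0.0916 and 0.0687). miR-92a-1-5p, from the Mir17hg cluster, fell by 1.42 (adjusted p = 0.0156, edgeR) at 9.68, 22.1 and 13.1 CPM in the EV recipients and 52.2, 45.3 and 37.7 CPM in PBS cells. Its call was lost without EV recipient library 1 or 3 or PBS library 1 (adjusted p = 0.0607, 0.0625 and 0.0547).

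The other falls were of abundant arms or of miRNAs with 1 tested arm. miR-130b-5p had 876, 859 and 752 CPM in the EV recipients and 1401, 1095 and 1157 CPM in PBS cells, a log2 change of -0.54. miR-484, which is made without Drosha, had 1840, 1908 and 1627 CPM in the EV recipients and 2311, 2238 and 2535 CPM in PBS cells, a log2 change of -0.39. Both had separate groups (adjusted p = 7.20e-05 and 1.00e-04, edgeR's quasi-likelihood test). miR-328-3p fell by 0.49 (adjusted p = 0.00123, edgeR), and miR-339-5p by 0.39 (adjusted p = 0.00293, edgeR, but 0.0607 without EV recipient library 1). miR-18a-5p, from the Mir17hg cluster, fell by 0.35 (adjusted p = 0.0302, edgeR) and kept its call only where PBS library 1 was left out, with adjusted p of 0.0654 to 0.103 in the other cases. miR-3968 fell by 0.48 (adjusted p = 0.0197, edgeR), with adjusted p of 0.0654, 0.0984, 0.0735 and 0.103 without EV recipient library 1 or 3 or PBS library 2 or 3. DESeq2 did not call miR-18a-5p, miR-222-5p, miR-3968, miR-92a-1-5p, miR-378b or miR-194-5p (adjusted p = 0.0543 to 0.156). In all, 19 of the 32 calls held without any 1 of the 6 libraries, 9 rises and 10 falls.

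The families whose members carry these calls did not move as blocks. Over all 229 tested miRNAs, 14.0% were called, 7.42% up and 6.55% down. The counts below were not tested against these shares. None of the 10 tested let-7 guide strands passed the test, with 3 at an unadjusted p under 0.05, 2 called by DESeq2 and 1 by limma-trend. Their median was 0.07, and it was below 0 under upper-quartile and library-size scaling, while DESeq2's size factors in edgeR gave 3 rises. Of the 6 tested let-7 passenger strands, 1 fell (2 with library-size scaling) and the median was -0.30, against -0.004 for all tested miRNAs. Among them, let-7a-1-3p and let-7c-2-3p have the same mature sequence, so they are not separate measurements. In the miR-23/27/24 clusters 1 of 10 tested members rose and 2 fell, with 3 rises under DESeq2's size factors and 3 falls under upper-quartile and library-size scaling. In the cluster of miR-221 and miR-222 2 of 4 fell, both passenger arms (3 with upper-quartile or library-size scaling and 1 with DESeq2). In the miR-15/16 family 1 of 7 rose (0 with upper-quartile, library-size or the authors' scaling) and 1 fell, in the miR-30 family 1 of 10 fell (2 with upper-quartile and 4 with library-size scaling), and in the Mir17hg and paralogous clusters 2 of 14 fell (0 with DESeq2). No tested member of the miR-29 family (3), of the list around the miR-99b, let-7e and miR-125a cluster (9), of the miR-181 family (2) or of the myeloid list (3) passed the threshold with edgeR after TMM scaling or with DESeq2. Library-size scaling gave 1 fall in each of the first 3 of these lists. In these lists let-7e-3p alone, with a log2 change of -1.45, had an unadjusted p under 0.05 (0.0167), and limma-trend called it a fall, while DESeq2 gave it no adjusted p. Of 5 tested members of the family of miR-130 and miR-301, 1 fell, and of 3 tested miRNAs made without Drosha, 1 fell.

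Hairpins with both arms tested allow a comparison within each library that does not depend on scaling between libraries. For 71 hairpins the rarer arm, defined by reads over all 12 cell libraries, was set against the more abundant one as a log2 ratio of CPM plus 2 and tested with limma. The ratio changed for 14 of 71 hairpins, or 19.7% (adjusted p under 0.05). In 13 of them, 18.3% of the 71, the rarer arm lost ground in cells given RAW saline EVs, and in miR-130b it gained. Over all 71 hairpins the ratio was lower in 54, with a median log2 change of -0.23. In recipients of RAW Con A EVs it was lower than in PBS cells in 48, with a median of -0.15. Both comparisons use the same PBS libraries. The names of 14 of the 71 pairs mark genes with several copies, whose more abundant arm collects reads from each copy. The rarer arms let-7a-1-3p and let-7c-2-3p have the same sequence, as do the abundant arms miR-199a-3p and miR-199b-3p. The pairs with these arms are therefore not fully separate.

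The hairpins below show where the arms lie, with both mature arms in capitals, from RefSeq (GRCm38.p6). They are examples from the ratios that fell and held without any 1 library. In let-7c-1 and miR-155 the abundant arm comes first, and in miR-27a the rarer arm does.
let-7c-1: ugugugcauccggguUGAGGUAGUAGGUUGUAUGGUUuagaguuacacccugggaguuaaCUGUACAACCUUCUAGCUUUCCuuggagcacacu
miR-27a: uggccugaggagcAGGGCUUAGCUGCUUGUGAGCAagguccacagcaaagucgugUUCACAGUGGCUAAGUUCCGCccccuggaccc
miR-155: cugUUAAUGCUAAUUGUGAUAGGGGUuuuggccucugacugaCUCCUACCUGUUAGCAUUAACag

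For let-7c-1, there were 2.17, 2.72 and 2.39 reads of the 3p arm per 1000 reads of let-7c-5p in the EV recipients, and 8.58, 11.3 and 10.6 in PBS cells. For miR-27a, there were 10.9, 14.4 and 13.6 reads of the 5p arm per 1000 of the 3p arm in the EV recipients, and 42.0, 37.2 and 36.8 in PBS cells. For miR-155, there were 52.4, 50.7 and 35.7 reads of the 3p arm per 1000 of the 5p arm in the EV recipients, and 153, 158 and 194 in PBS cells. In all 3 hairpins the groups were far apart. The log2 changes of the ratio were -2.01, -1.57 and -1.85 (adjusted p = 1.0e-05, 4.3e-05 and 1.95e-04, limma).

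The arms moved in different ways in different hairpins. In let-7c-1 and miR-27a the abundant arm had log2 changes of 0.02 and 0.16 that did not pass the test, and the rarer arm fell. In miR-155 both arms moved apart. In miR-7a-1 the ratio fell to 1.11 ± 0.195 reads per 1000 in the EV recipients, against 1.96 ± 0.127 in PBS cells (mean ± SD, n = 3 each), with miR-7a-5p higher and a log2 change of -0.29 for miR-7a-1-3p that did not pass the test. In miR-130b, the 5p arm was the more abundant and fell, while miR-130b-3p did not pass the test. There were 240 ± 30.1 reads of the 3p arm per 1000 of the 5p arm in the EV recipients and 136 ± 18.5 in PBS cells (mean ± SD, n = 3 each), a log2 change of 0.82 (adjusted p = 0.00744, limma).

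**Figure D3:**
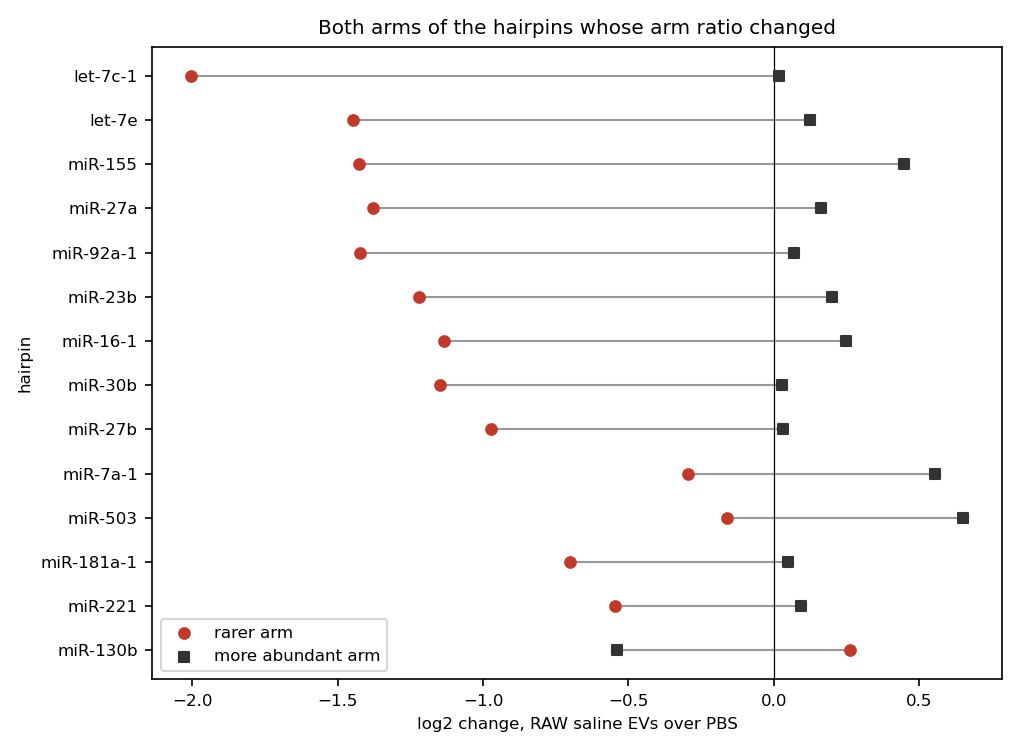
For each of the 14 hairpins whose arm ratio changed, the log2 change, RAW saline EVs over PBS, is shown for the rarer arm (red circle) and for the more abundant arm (black square), joined by a line. The circle lies left of the square in 13 hairpins and right of it in miR-130b. The largest gap is that of let-7c-1, at -2.00 and 0.02.

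The ratios of miR-92a-1, miR-30b and miR-16-1 also fell, by 1.57, 1.15 and 1.36 on the log2 scale (adjusted p = 1.95e-04, 0.00177 and 0.00226, limma). These 3 held without any 1 library, as did let-7c-1, miR-27a, miR-155, miR-7a-1 and miR-130b. The other 6 did not. miR-23b (log2 change -1.56) lost its call without PBS library 1 (adjusted p = 0.0639), and miR-221 (-0.66) and let-7e (-1.85) without EV recipient library 3 (0.0626 and 0.0796) or PBS library 1 (0.066 and 0.0518, limma). miR-27b (-1.04) lost it without EV recipient library 3 or PBS library 1 or 2 (adjusted p = 0.0906, 0.066 and 0.0612, limma). miR-181a-1 (-0.76) and miR-503 (-0.78) kept it in 2 and 1 of the 6 cases, with adjusted p up to 0.133 and 0.156 (limma). The count of called hairpins was 9 without EV recipient library 3 and 8 without PBS library 1. The rarer arms of let-7e, miR-23b, miR-181a-1 and miR-503 did not pass the test on their own.

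Sorted by role, the changes were uneven. Of the 71 rarer arms, 9 fell, 0 rose and 53 had a negative log2 change, with a median of -0.25 (edgeR's quasi-likelihood test). At an unadjusted p under 0.05, 17 fell and 1 rose. DESeq2 called 7 falls and 0 rises among them, and limma-trend 12 and 0. Of the 67 more abundant arms, 6 rose and 3 fell, with a median of 0.02. Of the 91 miRNAs with 1 tested arm, 11 rose and 3 fell, with a median of 0.11. Rarer arms have fewer reads, and the same was also counted for miRNAs with 30 to 1000 CPM in PBS cells. This range kept 67 of the 71 rarer arms and did not make levels equal. Median PBS levels within it were 100 CPM for rarer, 409 CPM for abundant and 144 CPM for single arms. The counts therefore cannot separate role from level. In that range 9 of 67 rarer arms fell and 0 rose (median -0.26), 1 of 24 abundant arms rose and 2 fell (median -0.13), and 6 of 54 single arms rose and 1 fell (median 0.09). The library-size scaling shift of -0.10 applies to each of these medians alike.

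A mature sequence was matched by name in the RefSeq table used for 207 of the 229 tested miRNAs and for 27 of the 32 called. The first base was U in 11 of 15 rises (73.3%), in 3 of 12 falls (25.0%) and in 79 of 180 miRNAs that did not pass the test (43.9%). A 5′ U is common in guide arms, and several of the falls are rarer arms. First base was not counted by arm role, so a link between them was not tested. Median GC content was 45.5% in the rises, 46.6% in the falls and 47.6% in the rest. Among these 27, miR-7a-5p and miR-7b-5p were the 1 pair that shared a seed. Some tested miRNAs with a matched sequence had the seed of another rise and did not pass the test. miR-15a-5p, miR-15b-5p, miR-195a-5p and miR-322-5p, which share the seed of miR-16-5p, had log2 changes of 0.007, 0.07, 0.23 and 0.21, and miR-125a-5p and miR-125b-5p, which share that of miR-351-5p, had 0.15 and -0.02.

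RAW saline EVs were also sequenced, in 1 library of 114791 miRNA reads, in which a count of 0 allows up to 26.1 CPM. Whether this library came from the preparation given to the recipients is not stated. With 1 library, its values are given without a test. Its leading miRNAs were let-7i-5p with 24.3% of reads, let-7f-5p with 15.6% and miR-21a-5p with 10.4%, against 6.99, 5.37 and 27.1% in PBS cells. In the recipients, let-7i-5p and let-7f-5p had log2 changes of 0.02 and 0.15 that did not pass the test. The 30 most abundant miRNAs of the EVs made up 87.5% of EV reads and 82.2% of reads in PBS cells. Of these 30, 6 rose in the recipients and 0 fell, with a median of 0.05, smaller than the shift between scalings (edgeR). Over all tested miRNAs, 7.42% rose and 6.55% fell. Transfer from the EVs was not tested. Among the 30, 9 rose and 3 fell at an unadjusted p under 0.05, and DESeq2 called 9 rises and 0 falls, limma-trend 7 and 0. The 6 were miR-148a-3p, miR-378a-3p, miR-3535, miR-7a-5p, miR-146a-5p and miR-7b-5p.

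The risers differed in how rich the EVs were in them. miR-148a-3p had 19078 CPM in the EVs (95% exact Poisson interval 18287 to 19894), 1056 times its level in PBS cells, a loose ratio because the PBS level rests on 4, 8 and 3 reads. miR-3535 had 10898 CPM in the EVs (10303 to 11519), 28.8 times its level in PBS cells. miR-146a-5p, in contrast, had 7962 CPM in the EVs (7454 to 8496), 0.441 times its level in PBS cells. The corresponding ratios were 0.236 for miR-7a-5p and 0.267 for miR-7b-5p. miR-155-5p had 14 reads, or 122 CPM (66.7 to 205), 0.114 times its level in PBS cells, and miR-155-3p had 0 reads. Over the 17 rises, 4 had a higher CPM in the EVs than in PBS cells, and the median ratio was 0.387. The same held for 3 of the 15 falls (median ratio 0.661) and for 63 of the 197 other tested miRNAs (median ratio 0.595). Among the falls, miR-27a-5p had 845 CPM in the EVs (685 to 1031), 2.41 times its level in PBS cells, and miR-30b-3p had 732 CPM (584 to 906), 4.55 times.

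**Figure D4:**
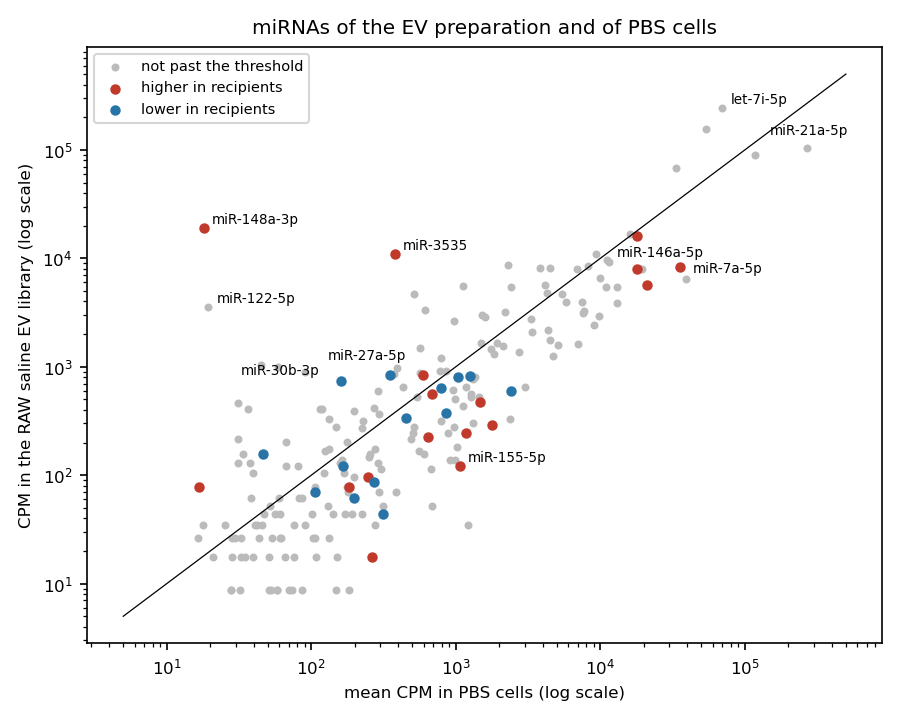
CPM in the RAW saline EV library (y axis) against mean CPM in PBS cells (x axis), both on log scales, for the 215 tested miRNAs with reads in both. miR-451a, with 107 reads in the EVs and 0 in each PBS library, is therefore not shown. Rises in recipients are red and falls blue, and the line marks equal CPM. miR-148a-3p and miR-3535 lie far above the line, while miR-146a-5p, miR-7a-5p and miR-155-5p lie below it.

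Markers of other cell types were read beside miR-148a-3p, since the EV library held several of them. The hepatocyte miRNA miR-122-5p had 405 reads in the EVs, or 3528 CPM (3193 to 3889). In recipient cells it had 5, 12 and 12 reads with RAW saline EVs and 2, 7 and 8 reads with PBS, a log2 change of 0.86 that did not pass the test (adjusted p = 0.202, edgeR). The erythrocyte miRNA miR-451a had 107 reads in the EVs, but 1, 0 and 0 reads in the EV recipients and 0 in each PBS library. Summed over the hepatocyte list, of which 1 of 3 tested members (miR-194-5p) rose, the level before TMM scaling was 1222 to 1815 CPM in the EV recipients and 1093 to 1470 CPM in PBS cells. Over all tested miRNAs, 7.42% rose. The endothelial miRNA miR-126a-3p had 119, 187 and 101 reads in the EV recipients and 135, 178 and 195 reads in PBS cells (adjusted p = 0.153, edgeR). No member of the erythrocyte, endothelial, lymphocyte, epithelial or stromal lists passed the test with edgeR after TMM scaling, DESeq2 or limma-trend, although 1 endothelial and 1 stromal miRNA had lower levels at an unadjusted p under 0.05 and edgeR called 1 fall in each of these lists under upper-quartile and under library-size scaling, and no muscle miRNA had enough reads to be tested. The islet miRNA miR-375-3p, the stromal miR-145a-5p and miR-214-3p and the muscle miR-133a-3p and miR-206-3p had 0 reads in all 6 cell libraries. The stromal miR-143-3p had 124 reads in the EVs, 1, 4 and 2 reads in the EV recipients and 0 in each PBS library. The part of such miRNAs in the rise of miR-148a-3p was not tested.

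Recipients of RAW saline EVs and of RAW Con A EVs were compared directly. This contrast does not use the PBS levels but shares the spread estimated over all 12 cell libraries. Separate EV preparations or cultures are not stated for the libraries. Donor treatment therefore cannot be told apart from differences between preparations or cultures. Of 229 tested miRNAs, 8 differed, or 3.49% (adjusted p under 0.05, edgeR's quasi-likelihood test), 5 of them higher and 3 lower with RAW saline EVs. The comparisons of each group with PBS share the PBS libraries, so they are set side by side only as values. miR-146a-5p had log2 changes over PBS of 0.82 with RAW saline EVs and 0.92 with RAW Con A EVs, and the direct difference was -0.10 with an SE of 0.07 (adjusted p = 0.509). For miR-7a-5p and miR-7b-5p the direct differences were 0.03 and 0.02 with SEs of 0.08 and 0.07 (adjusted p = 0.888 and 0.945). miR-155-5p was higher with RAW saline EVs, at 1385, 1416 and 1470 CPM, against 1157, 1078 and 1129 CPM with RAW Con A EVs. Its groups did not overlap, and the difference was 0.35 on the log2 scale (SE 0.08, adjusted p = 0.0143).

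The largest differences were again in rarer arms. let-7c-1-3p stood at 38.7, 52.5 and 48.1 CPM with RAW saline EVs and at 89.5, 108 and 128 CPM with RAW Con A EVs. miR-27a-5p stood at 111, 141 and 131 CPM with RAW saline EVs and at 274, 242 and 221 CPM with RAW Con A EVs. In both, the groups were separate, and the RAW Con A EV libraries lay between those of RAW saline EVs and PBS. The differences were -1.24 and -0.88 on the log2 scale, with SEs of 0.26 and 0.17 (adjusted p = 0.00378 and 0.00198, edgeR's quasi-likelihood test). miR-130b-5p was also lower, by -0.37 (adjusted p = 0.0227). miR-503-5p, miR-351-5p, miR-22-3p and miR-142a-3p were higher with RAW saline EVs by 0.71, 0.40, 0.33 and 0.25 (adjusted p = 0.0157, 0.0227, 0.0425 and 0.0425, edgeR). Of these, miR-142a-3p was not called as a rise over PBS. Its log2 changes over PBS were 0.02 with RAW saline EVs and -0.23 with RAW Con A EVs. Of the 71 arm ratios, 4, or 5.63%, differed between the recipients (limma), and all 4 were lower with RAW saline EVs. They were let-7c-1, miR-27a, miR-503 and miR-155, with log2 differences of -1.26, -0.91, -1.05 and -1.01 (adjusted p = 0.00149, 0.0087, 0.0203 and 0.0355).

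Of the 8 direct differences, that of miR-27a-5p held without any 1 library. The other 7 were lost without RAW Con A EV library 3, where let-7c-1-3p had an adjusted p of 0.113, miR-155-5p 0.0508, miR-503-5p 0.113, miR-351-5p 0.206, miR-130b-5p 0.114, miR-22-3p 0.383 and miR-142a-3p 0.258 (edgeR). There were 2 calls without RAW saline EV library 3 and 5 without RAW saline EV library 2. The counts were 4 with upper-quartile scaling and with DESeq2, and 5 with library-size scaling and with only the 6 libraries compared.

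**Figure D5:**
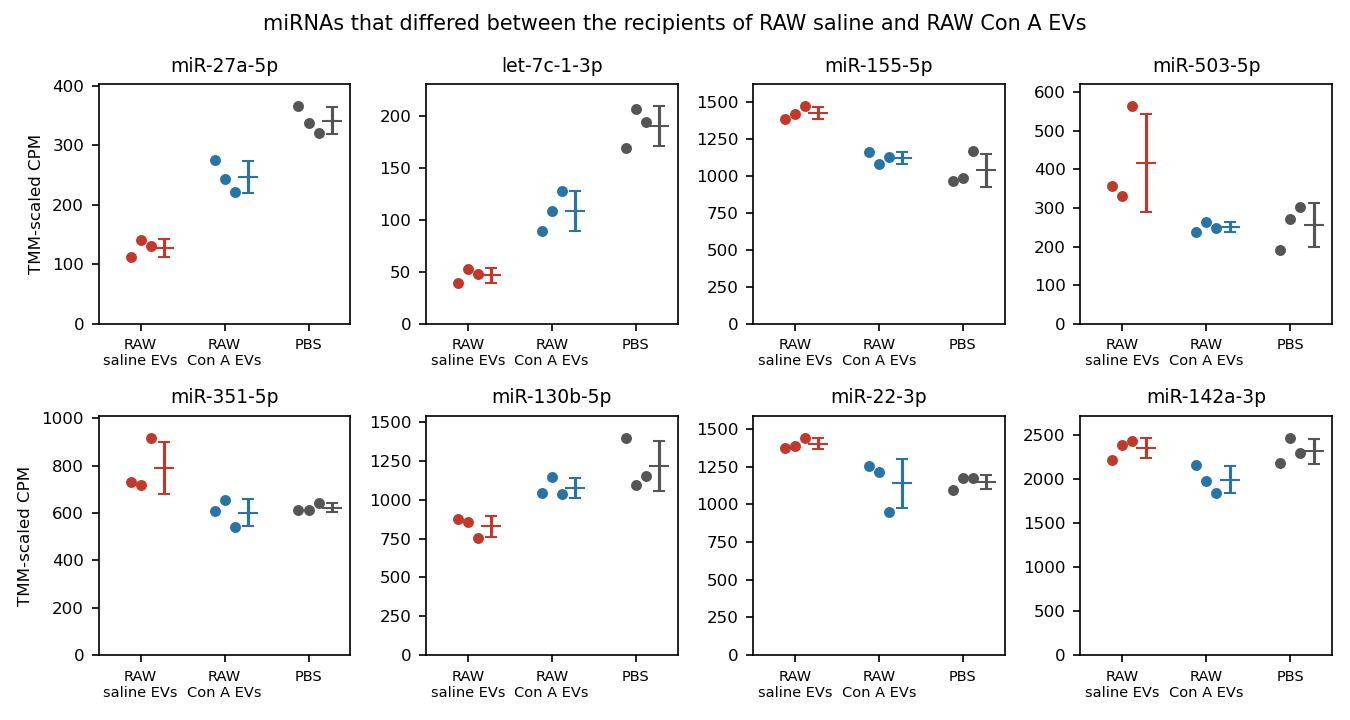
Each panel shows 1 of the 8 miRNAs that differed between recipients, as TMM-scaled CPM on a linear axis from 0, with RAW saline EVs in red, RAW Con A EVs in blue and PBS in grey. Points are the 3 libraries of a group, and the bar gives mean and SD. miR-27a-5p and let-7c-1-3p are lowest with RAW saline EVs, intermediate with RAW Con A EVs and highest with PBS.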

How the data were processed

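Per the labels' protocols, a NEBNext kit for small RNA was used and the libraries were read on a MiSeq, 51 bp from 1 end. The deposited counts are whole numbers of reads for each of 941 mature miRNA names, in 1 table for cells and 1 for EVs. They also deposited normalized signal values, which for the 12 cell libraries were used only to derive the authors' scaling as an alternative chosen after seeing the data. Per the submitters' processing notes, the authors used edgeR, whose version and role are not stated. The authors' aligner, genome build and annotation are not stated in these sources, so no coordinates are printed. How reads shared by near-identical miRNAs were assigned is not given either.

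From the counts, 1 edgeR 4.0.16 quasi-likelihood model (R 4.3.3) was fitted to all 12 cell libraries in 4 groups, after filterByExpr, which kept 229 miRNAs, and TMM scaling. Tests were 2-sided with Benjamini-Hochberg adjustment over the 229 miRNAs and a threshold of 0.05. Cell levels are CPM after TMM scaling, and SE is that of the log2 change in this fit. Arm ratios used all 71 miRNA pairs with both arms tested, a pseudocount of 2 CPM and limma 3.58.1, with adjustment over these pairs. An alternative kept only pairs with at least 100 reads of the rarer arm over the 12 libraries. EV levels are plain CPM with exact 95% Poisson intervals, which cover counting error only, set against unscaled CPM in PBS cells. The fits were tested on simulated data.

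The miRNAs named were all those called, their other arms, up to 4 tested members of each of 25 lists with the smallest p, a panel of blood, liver and vessel miRNAs, the 10 most abundant miRNAs of PBS cells and of the EVs, all hairpins called and all direct differences. Seed relatives of called miRNAs, markers of other cell types and EV miRNAs that rose were named besides. Members, lists and comparisons were chosen with earlier results of these data known. Alternatives were other scalings and filters, DESeq2 1.42.0, limma-trend, a fit to the 6 libraries compared, a replicate block and leaving out each library. No 2 libraries of a group were closer than sampling noise.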

Additional observations from a re-analysis of the deposited data

Results flagged for a closer look

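Levels of 8 miRNAs differed between recipients of RAW saline EVs and of RAW Con A EVs, by a direct test of that difference over 229 miRNAs (edgeR's quasi-likelihood test with Benjamini-Hochberg adjustment, 3 libraries in each group). The treatment of the donor cells cannot be told apart here from differences between EV preparations or cultures. The log2 difference was 0.71 for miR-503-5p, 0.40 for miR-351-5p, 0.35 for miR-155-5p, 0.33 for miR-22-3p and 0.25 for miR-142a-3p, each higher with RAW saline EVs. It was -1.24 for let-7c-1-3p, -0.88 for miR-27a-5p and -0.37 for miR-130b-5p, each lower with RAW saline EVs. Against PBS, miR-142a-3p was not called with RAW saline EVs (log2 change 0.02). In every one of the 8, all 3 libraries with RAW saline EVs lay beyond all 3 with RAW Con A EVs. The 8 were picked by this same contrast, so that separation adds no support to the calls. Its share over all tested miRNAs was not counted, but miR-101a-3p, miR-126a-3p and miR-148b-3p were separated in the same way and were not called. Only the difference in miR-27a-5p kept its call without any 1 library.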

How the results depend on the processing

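No called miRNA, arm ratio or direct difference changed sign under any alternative, but the median of the let-7 guide strands, 0.07, was -0.02 with upper-quartile and -0.04 with library-size scaling. Against PBS, 32 miRNAs were called, 51 with scaling by library size alone, and 22 to 36 when 1 library was left out. Of the 32, 24 remained with library-size scaling, 25 with upper-quartile scaling, 27 with the authors' scaling (added after seeing the data), 26 without a filter and 26 with DESeq2, which called 31 in all. Called arm ratios numbered 14 of 71, and 8 to 18 when 1 library was left out, with 9 without RAW saline EV library 3 and 8 without PBS library 1. Direct differences between recipients numbered 8, 4 with upper-quartile scaling and with DESeq2, 5 with library-size scaling and with only the 6 libraries compared, and 1 to 11 when 1 library was left out. The cause of these changes in count was not tested. The replicate numbers were not taken as pairs, since the labels do not say that they pair samples. The deviations of same-numbered RAW saline EV and PBS libraries correlated at 0.07, -0.07 and 0.20. With the replicate number as a block, 34 miRNAs, 14 arm ratios and 9 direct differences were called. miRNAs near the unscaled floor of 8.22 to 13.5 CPM, such as miR-3473a and miR-92a-1-5p, are limited by depth.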
